A study of Mus musculus with 19 samples.

Results

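The genes described here encode the respiratory chain (complexes I to IV) and ATP synthase (complex V), the machinery of the inner mitochondrial membrane that turns the electrons of nutrients into ATP. They were chosen by symbol, as all genes named Nduf, Sdha to Sdhd, Uqcr, Cox4 to Cox8 or Atp5, together with the protein genes of the mitochondrial genome. The rule found 88 genes among the 13549 of the embryonic liver table and 110 among the 17606 of the tumour tables, of which 97 are nuclear and 13 mitochondrial. The embryo table lists no mitochondrial gene, so those are described in tumours alone. Of the nuclear members 87 are in both experiments.

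Complex I takes electrons from NADH and complex II from succinate, complex III passes them through cytochrome c to complex IV, and complex IV hands them to oxygen. Complexes I, III and IV pump protons as they do so, and ATP synthase uses the proton gradient to make ATP. Complex II is built from nuclear genes alone, while the other complexes combine nuclear subunits with subunits read from mitochondrial DNA, and hepatocytes are rich in mitochondria.

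The study sequenced RNA from a pair of mouse models of fibrolamellar hepatocellular carcinoma, a liver cancer marked by a fusion of DNAJB1 with PRKACA, the catalytic subunit of protein kinase A. In the first model the genotype label is DNAJ1B-PKA_Overexpression: a Rosa26 LSL-DNAJB1-PKA-GFP allele was recombined by Alb-Cre, which the albumin promoter drives in the liver from mid-gestation. Livers at embryonic day 18.5 came from 5 control and 4 fusion embryos, as poly-A RNA. The alleles that the control embryos carry are not given in the sources used here, and albumin-driven Cre acts in hepatocytes and their precursors, not in the blood cells that also fill a fetal liver. In the second model FL8 cells, a mouse line, were set in methacrylated gelatin and implanted under the skin of NSG mice, which lack lymphocytes but keep blood, vessel and stromal cells. After randomization at a mean tumour size of 75 mm3, 5 mice received vehicle (0.5% methocel) and 5 received palbociclib, which blocks CDK4 and CDK6 and so entry into S phase, by gavage at 75 mg/kg for 3 days with 4 days off, and total RNA was sequenced. The labels tie each tumour to no litter or batch, name 1 cell line and give no genotype for it. Both experiments measured bulk tissue, in which fewer cells of a type and less RNA per cell cannot be told apart.

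Libraries held 7660736 to 45591301 counts in embryos and 2955729 to 43141761 reads in tumours. Levels are given as CPM (counts per 1000000 counted). In embryos the totals were first scaled by TMM factors, which normalize between libraries, so embryo CPM need not match shares of counts. Prkaca, which the transgene carries, was at 36.3 to 50.5 CPM in control and 52.0 to 114 CPM in fusion livers, and the groups did not overlap. The share of counts on ribosomal protein genes was 9.68% to 10.1% in control 1 and 2 and fusion 8 and 9 and 6.16% to 7.85% in the other livers, a split that crosses the genotype. A pair of vehicle tumours stood apart from the rest. In vehicle 1 mitochondrial genes took 46.6% of all reads, against 1.24% to 6.47% in the other 9 tumours. Vehicle 5 was the shallowest, at 2955729 reads, and had the largest ribosomal protein share, at 11.1% of the reads outside mitochondrial genes against 4.48% to 8.43% in the others. Summed levels of 13 hepatocyte markers were 182020 to 224760 CPM in control and 191164 to 231056 CPM in fusion livers, and 41871 to 120061 and 88834 to 133896 CPM in vehicle and palbociclib tumours.

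Sequences from the RefSeq promoter table (build GRCm38.p6) are given first, for 4 members that rose in fusion livers. The 4 were picked because they carry letters from the motifs of certain factors. These are NRF1, a nuclear activator of respiratory genes, and CREB, the factor that protein kinase A phosphorylates. Nuclear receptors are also among them, such as the estrogen-related receptors that partner the coactivator PGC-1alpha. Whether any of these factors acts on the 4 genes was not tested. Each line holds the 250 bases before the RefSeq start, 5′ to 3′ in the direction of the gene, with the motif in capitals on whichever strand it was found, so that AAGGTCA on the other strand reads TGACCTT. The letters AAGGTCA are shared by the elements of many nuclear receptors and name no single one. The Ndufaf4 window is chr4:24897833-24898082 (plus strand), that of Ndufs5 chr4:123718187-123718436 (minus), that of Atp5g3 chr2:73911327-73911576 (minus) and that of Uqcrfs1 chr13:30545317-30545566 (minus).
Ndufaf4 (NRF1 core, on both strands): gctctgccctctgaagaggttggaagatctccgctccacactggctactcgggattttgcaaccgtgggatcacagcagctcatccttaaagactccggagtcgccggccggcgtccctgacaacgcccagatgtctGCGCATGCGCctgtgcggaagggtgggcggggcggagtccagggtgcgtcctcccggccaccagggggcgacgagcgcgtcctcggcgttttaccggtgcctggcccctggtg
Ndufs5 (nuclear receptor letters AAGGTCA): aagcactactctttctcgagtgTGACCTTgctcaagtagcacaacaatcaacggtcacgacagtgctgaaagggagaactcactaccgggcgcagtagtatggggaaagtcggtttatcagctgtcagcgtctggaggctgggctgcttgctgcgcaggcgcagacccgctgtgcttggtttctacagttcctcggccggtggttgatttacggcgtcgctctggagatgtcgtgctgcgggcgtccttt
Atp5g3 (the same letters): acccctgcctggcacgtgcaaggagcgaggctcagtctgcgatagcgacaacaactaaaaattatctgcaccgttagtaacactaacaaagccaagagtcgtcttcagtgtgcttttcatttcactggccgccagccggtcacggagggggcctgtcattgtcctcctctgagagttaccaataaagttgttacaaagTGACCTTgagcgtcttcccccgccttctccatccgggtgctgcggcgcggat
Uqcrfs1 (cyclic AMP response element): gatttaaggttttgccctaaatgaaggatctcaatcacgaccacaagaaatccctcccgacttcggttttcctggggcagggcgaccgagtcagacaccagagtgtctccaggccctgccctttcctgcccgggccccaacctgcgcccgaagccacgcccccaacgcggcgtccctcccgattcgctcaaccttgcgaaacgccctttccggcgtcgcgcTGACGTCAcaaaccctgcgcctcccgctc

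Motifs were counted on both strands over the 300-base windows from 250 bases before to 50 after the start. The table held windows for 72 of the 111 members and for 27025 genes in all. The NRF1 core GCGCATGC was in 12 of the 72 members (16.7%), against 3.05% of all genes, and in 4 of the 23 called members with a window, which were Ndufaf4, Ndufaf5, Sdhb and Uqcrc1. The GABPA core CCGGAAG, bound by a further nuclear activator of respiratory genes, was in 18 members (25%) against 9.93% of all genes. The nuclear receptor letters AAGGTCA were in 8 members (11.1%) against 5.38%, the YY1 core AAGATGGCG in 8 (11.1%) against 1.64%, and the cyclic AMP element TGACGTCA in 4 (5.56%) against 2.03%. Of the 23 called members, 3 held AAGGTCA (Ndufs5, Atp5g3 and Sdhd) and 4 the GABPA core (Atp5h, Ndufs3, Sdhb and Sdhd). The cyclic AMP element was in 1 of the 23, Uqcrfs1. Whether called members hold a motif more often than the 72 members was not tested. None of the 23 held the YY1 core. The motifs can overlap one another, and a match describes letters, not binding.

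The first comparison asks which of these genes differ between fetal livers with and without the fusion. Members of every complex were higher in the fusion livers, and none was called lower. In edgeR's quasi-likelihood test, adjusted over all 13316 genes tested, 28 of the 88 members rose and 0 fell at an adjusted p under 0.05, while over all genes 5.99% were called higher and 6.81% lower. No member was lower at an unadjusted p under 0.05 in edgeR, and 0 were called lower by DESeq2, while 47 were higher at that unadjusted level, against 13.9% of all genes higher and 15.4% lower. The median log2 fold change of the members was 0.47, against -0.01 for all genes tested, and 84 members were above 0. Without overlap between the groups, 27 members were higher in all 4 fusion livers than in all 5 controls, against 8.37% of all genes tested. Of all counts, 2.00% ± 0.245 (SD, n = 5) fell on members in controls and 2.82% ± 0.426 (SD, n = 4) with the fusion, and the groups met at control 2 and fusion 6, both at 2.32%.

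**Figure D1:**
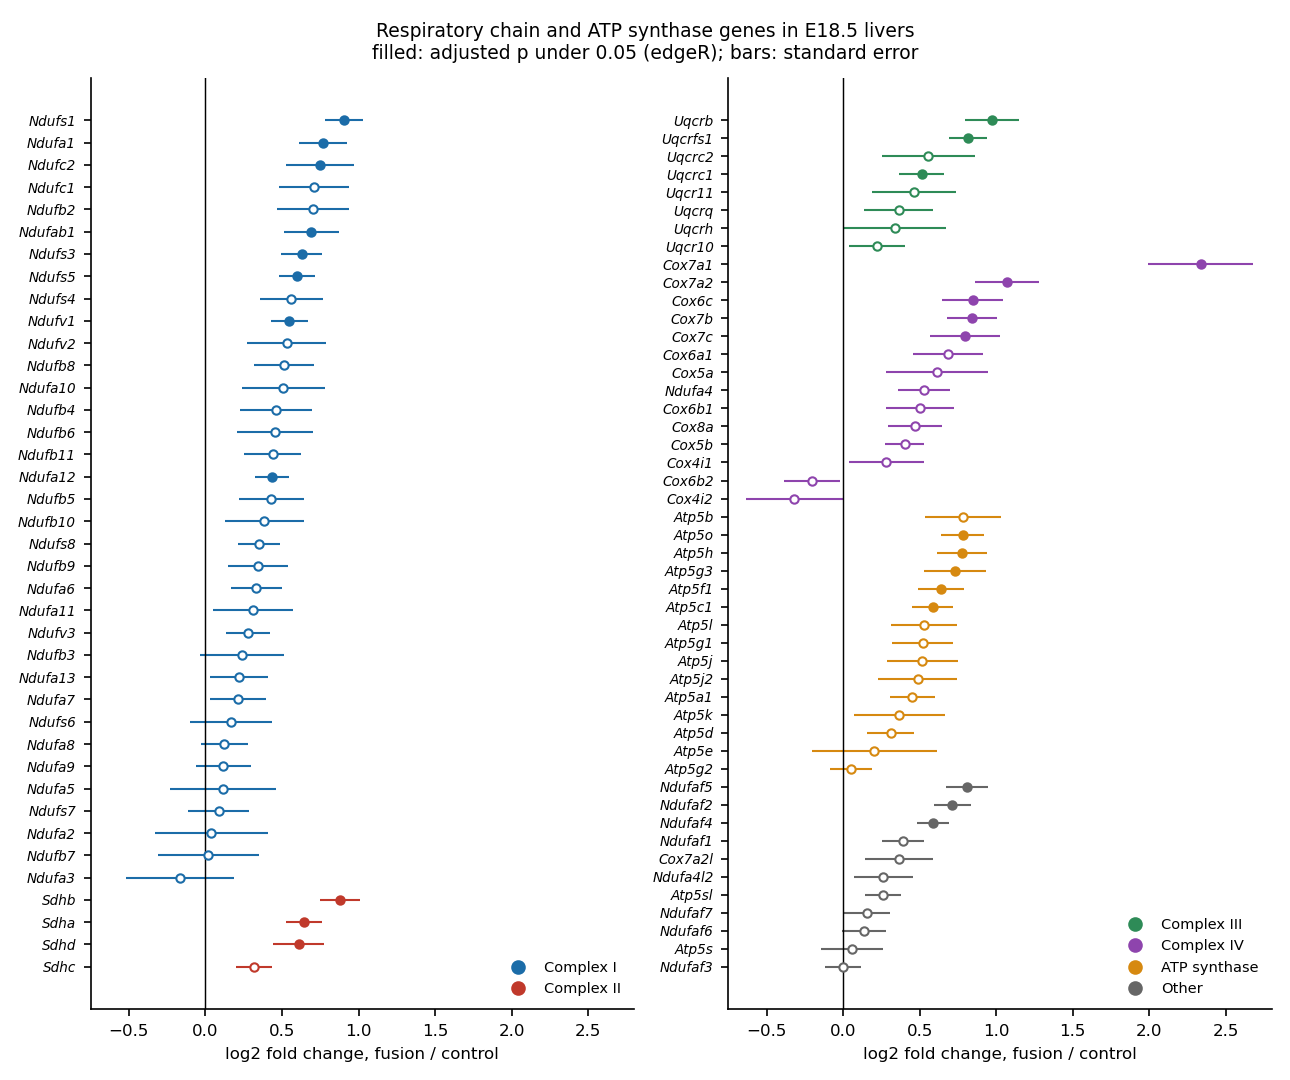
Log2 fold change of 87 of the 88 members between fusion and control E18.5 livers, grouped by complex, with the standard error as a bar and filled points for an adjusted p under 0.05 in edgeR. The 27 filled points all lie to the right of 0, Cox7a1 farthest at 2.33, and the lowest open point is Cox4i2 at -0.32.

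In complex I, the NADH dehydrogenase, 9 of 36 nuclear members rose and 0 fell. The core subunits Ndufs1, Ndufs3 and Ndufv1 were among those that rose. Ndufs1 (ENSMUSG00000025968, chr1:63143596-63176833 in GRCm38, minus strand), the largest iron-sulfur subunit, was at 77.6, 86.2, 82.95, 95.7 and 94.6 CPM in control 1 to 5 and at 181, 162, 176 and 137 CPM in fusion 6 to 9. Every fusion liver lay above every control, and the log2 fold change was 0.91 ± 0.12 (SE), with an adjusted p of 0.00133 in edgeR. Ndufv1, which binds NADH and its flavin, averaged 128 CPM in controls (SD 9.70, n = 5) and 188 CPM in fusion livers (SD 21.6, n = 4), and rose by 0.55 ± 0.12 on the log2 scale (SE; adjusted p = 0.0143 in edgeR).

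The accessory subunits Ndufa1, Ndufa12, Ndufab1, Ndufc2 and Ndufs5 also rose, at log2 fold changes of 0.43 to 0.77. Ndufa1, an X-linked membrane subunit, was at 58.7 to 82.6 CPM in controls and 88.8 to 146 CPM in fusion livers. For Ndufab1, the mitochondrial acyl carrier protein, and for Ndufc2 the groups overlapped: in Ndufab1 control 2, at 81.3 CPM, lay above fusion 6, at 76.4 CPM. Other accessory subunits had log2 fold changes near 0: Ndufb7 averaged 414 CPM (SD 183, n = 5) in controls and 420.1 CPM (SD 145, n = 4) in fusion livers, and Ndufa2 359.8 (SD 166) and 369.7 CPM (SD 166). The lowest in complex I was Ndufa3, at -0.16 ± 0.35 (SE), with an adjusted p of 0.796 in edgeR, and its controls ran from 182 to 469 CPM.

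Complex II, succinate dehydrogenase, was the complex with the largest share of called members, 3 of 4. Sdhb (chr4:140961203-140979193 in GRCm38, plus strand), its iron-sulfur subunit, was at 97.1, 122, 127, 138 and 128 CPM in control 1 to 5 and at 205, 223, 254 and 221 CPM in fusion 6 to 9. Its groups did not overlap, and the log2 fold change was 0.88 ± 0.13 (SE), with an adjusted p of 0.00211 in edgeR. Sdha, the flavoprotein that oxidizes succinate, rose by 0.64 ± 0.12 on the log2 scale (SE), with an adjusted p of 0.00595 in edgeR, and Sdhd, a membrane anchor, by 0.61 ± 0.17 (SE), with an adjusted p of 0.0349 in edgeR. The other anchor, Sdhc, was at 158 to 191 CPM in controls and 192 to 232 CPM in fusion livers without overlap, but did not pass (edgeR adjusted p = 0.0951). Summed over the 4 genes, complex II was at 829 to 932 CPM in controls and 1192 to 1550 CPM in fusion livers.

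In complex III, the cytochrome bc1 complex, 3 of 8 members rose. Uqcrfs1 (chr13:30540308-30545362, minus strand), the Rieske iron-sulfur protein, was at 159, 168, 194, 196 and 198 CPM in control 1 to 5 and at 325, 351, 330 and 280 CPM in fusion 6 to 9. The groups did not overlap and the log2 fold change was 0.81 ± 0.12 (SE), with an adjusted p of 0.00247 in edgeR. Uqcrb, a small subunit near the ubiquinone site, averaged 121 CPM in controls (SD 17.04, n = 5) and 236 CPM in fusion livers (SD 59.7, n = 4), with fusion 8 the highest at 324 CPM. Uqcrc1, a core protein, rose by 0.51 on the log2 scale (edgeR adjusted p = 0.0426), and its called difference was lost in 10 of 17 other settings. The abundant small subunits Uqcrh, Uqcrq, Uqcr10 and Uqcr11 did not pass, at log2 fold changes of 0.22 to 0.46. Uqcrh ran from 491 to 1166 CPM among controls alone.

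In complex IV, cytochrome c oxidase, 5 of 14 nuclear members rose, led by the isoform Cox7a1. Cox7a1 (chr7:30184144-30186078, plus strand), the isoform known from heart and skeletal muscle, was at 8.50, 9.34, 4.70, 2.96 and 5.15 CPM in control 1 to 5 and at 17.8, 28.8, 46.98 and 26.6 CPM in fusion 6 to 9. No fusion liver was below any control, and the log2 fold change of 2.33 ± 0.34 (SE), with an adjusted p of 0.00198 in edgeR, was the largest among members. Its ubiquitous counterpart Cox7a2 was at 269, 298, 227, 224 and 216 CPM in controls and 370, 419, 775 and 509 CPM in fusion livers, a log2 fold change of 1.07 ± 0.21 (SE), with an adjusted p of 0.00812 in edgeR.

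Even in fusion livers Cox7a1 stayed far below Cox7a2 in CPM. The 5 of 15 skeletal muscle markers that the embryo table lists summed to 8.56 to 12.9 CPM in control and 9.92 to 13.2 CPM in fusion livers, so the groups overlapped. Of the 5 brown fat markers 2 are listed, Ppara and Dio2, at 101 to 164 CPM in control and 68.8 to 110 CPM in fusion livers. Ucp1, Cidea and Elovl3 are not listed, and whether this RNA comes from brown fat was not tested. The other called subunits, Cox7b, Cox6c and Cox7c, rose by 0.84, 0.84 and 0.80 on the log2 scale, and Cox5b missed the threshold (edgeR adjusted p = 0.0577) although its groups did not overlap. Cox4i2, the lung-type isoform of Cox4i1, was at 1.36 to 2.73 and 0.792 to 1.85 CPM in control and fusion livers. The testis-type Cox6b2 was at 41.7 to 74.8 and 35.2 to 53.6 CPM. Neither passed, and Ndufa4l2, a relative of the complex IV subunit Ndufa4 known as induced by low oxygen, was at 108 to 140.2 and 89.1 to 195 CPM and did not pass either (edgeR adjusted p = 0.400).

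In ATP synthase 5 of 15 members rose and all 15 had a log2 fold change above 0. Atp5o (chr16:91925214-91931687, minus strand), a subunit of the stalk that holds the catalytic head, was at 357, 361, 295, 299 and 313 CPM in control 1 to 5 and at 479, 513, 673 and 568 CPM in fusion 6 to 9. Its groups did not overlap, and the log2 fold change was 0.78 ± 0.14 (SE), with an adjusted p of 0.00534 in edgeR. Of the stalk subunits Atp5h and Atp5f1 rose by 0.78 and 0.64 on the log2 scale, and the rotor genes Atp5c1 and Atp5g3 by 0.59 and 0.73. The catalytic beta subunit Atp5b was at 471, 568, 749, 849.9 and 898 CPM in controls and 1729, 1340, 935 and 868 CPM in fusion livers, with an edgeR adjusted p of 0.0600. Fusion 9 lay below control 5, and the groups overlapped, while those of the alpha subunit Atp5a1 did not (940 to 1327 and 1429 to 1541 CPM) although it too missed the threshold (edgeR adjusted p = 0.0641). The 3 genes for the c ring of the rotor, whose mature proteins are the same, were unlike: Atp5g3 passed, Atp5g1 did not (log2 fold change 0.52, edgeR adjusted p = 0.107), and Atp5g2 averaged 65.0 CPM (SD 8.13, n = 5) in controls and 67.4 CPM (SD 9.57, n = 4) in fusion livers.

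Among the remaining members, 3 of 7 complex I assembly factors rose. Ndufaf5, a hydroxylase that acts on complex I while it is built, was at 5.86 to 6.78 CPM in control and 9.61 to 13.4 CPM in fusion livers, a log2 fold change of 0.81 ± 0.14 (SE), with an adjusted p of 0.00407 in edgeR. Ndufaf2 and Ndufaf4 rose by 0.71 and 0.59 on the log2 scale. Ndufaf3 was at 13.5 to 17.5 and 13.9 to 17.2 CPM (edgeR adjusted p = 0.997), and Ndufaf1, Ndufaf6, Ndufaf7 and the supercomplex factor Cox7a2l did not pass.

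**Figure D2:**
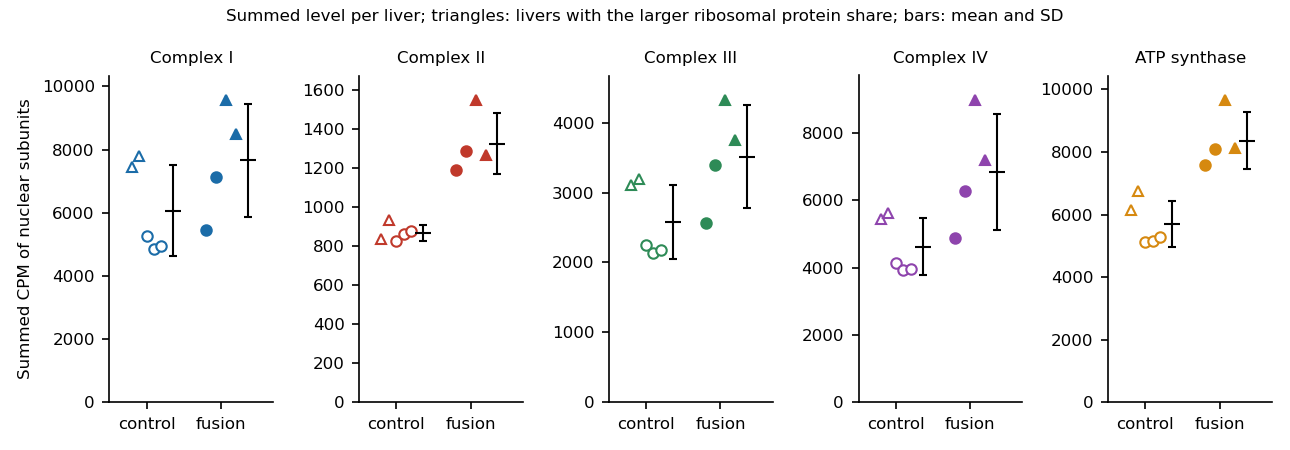
Summed CPM of the nuclear subunits of each complex in every E18.5 liver (open: control; filled: fusion), with triangles for control 1 and 2 and fusion 8 and 9, the livers with the larger ribosomal protein share, and the mean and SD as bars. Complex II and ATP synthase do not overlap between genotypes, while the complex I sums of control 1 and 2 lie above those of fusion 6 and 7.

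The summed level of each complex shows how far the split among livers ran. ATP synthase was at 6164, 6747, 5111, 5157 and 5277 CPM in control 1 to 5 and at 7571, 8100, 9672 and 8129 CPM in fusion 6 to 9, without overlap. Complex I was at 7453, 7813, 5260, 4841 and 4956 CPM in controls and at 5447, 7128, 9579 and 8487 CPM in fusion livers. The complex I sums of control 1 and 2 thus exceeded those of fusion 6 and 7, and within each side of the split every fusion liver lay above every control. The ratio of the group means was 1.53 for complex II, 1.48 for complex IV, 1.47 for ATP synthase, 1.36 for complex III and 1.26 for complex I. Differences between complexes were not tested.

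Of the 88 members, 47 were higher in both livers of the larger ribosomal share than in the others of the same genotype, in controls and in fusion livers alike, against 17.2% of all genes tested. The opposite held for 6, against 16.9% of all genes: Ndufa10, Uqcrc1, Uqcrc2, Atp5c1, Atp5b and Atp5j. With the split as a covariate 55 of 88 members rose and 0 fell, against 16.1% of all genes called higher, and those 55 included all 28. Atp5b then passed with a log2 fold change of 0.84 (edgeR adjusted p = 1.64e-04), as did Atp5j (0.61) and Uqcrc2 (0.61). Within control 1 and 2 and fusion 8 and 9, 38 members rose, against 10.2% of genes. Within control 3 to 5 and fusion 6 and 7, 44 rose, against 10.6%, but on that side Xist was near 0 in every control and high in both fusion livers, the male and the female pattern, so that sex and genotype cannot be told apart. Called higher on both sides were 30 members, against 4.59% of the genes tested on both. With sex as a covariate over all 9 livers, 21 of the 28 remained called, where 4.18% of all genes were called higher.

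Levels between genes were compared per kilobase of exon, with the union of all exons annotated for a gene as its length. That length was 702 bases for Cox6a1 and 6883 for Ndufab1, so the order depends on the annotation. On this scale Cox6a1, Cox4i1 and Cox6b1 of complex IV were highest in control livers, at 843, 760 and 743 CPM per kilobase. Ndufa2 followed at 629 and Uqcrh at 617 CPM per kilobase. Among the lowest besides Cox4i2 were the assembly factors Ndufaf5, at 3.51, and Ndufaf7, at 3.81 CPM per kilobase. The subunit Ndufab1 was at 9.70 CPM per kilobase.

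Some of the genes that feed the chain or build it also rose in fusion livers, and most of those that build it did not pass. Cycs, cytochrome c, was at 40.1 to 52.6 CPM in control and 89.4 to 133 CPM in fusion livers, a log2 fold change of 1.27 ± 0.14 (SE), with an adjusted p of 3.28e-04 in edgeR. Cyc1, the cytochrome c1 of complex III, rose by 0.90 on the log2 scale (edgeR adjusted p = 0.0164). Of 14 tricarboxylic acid cycle genes 7 rose and 0 fell, with a median log2 fold change of 0.62, led by fumarase (Fh1, 1.85), Idh3a (1.51), Dld (1.35) and Mdh2 (0.88). Of 7 exchange carriers 4 rose: the adenine nucleotide carriers Slc25a4 and Slc25a5, the phosphate carrier Slc25a3 and the channel Vdac1. Of 11 coenzyme Q genes tested 4 rose (Coq5, Coq7, Coq9 and Coq10b), of 40 further assembly factors 9 rose, and of 77 mitochondrial ribosomal protein genes 14 rose, with 0 lower in each list. Of 80 cytosolic ribosomal protein genes 1 rose and 0 fell. Beside these counts, 5.99% of all genes tested were called higher and 6.81% lower.

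Of 21 regulators of mitochondrial biogenesis tested, 3 rose and 0 fell, against 5.99% of all genes called higher. Ppargc1a, which encodes PGC-1alpha, a coactivator induced by cyclic AMP signalling in liver, was at 6.63 to 9.20 CPM in controls and 42.2 to 77.7 CPM in fusion livers. That is a log2 fold change of 2.92 ± 0.18 (SE), with an adjusted p of 8.45e-06 in edgeR, larger than that of any member. Its partner receptor Esrra rose by 0.79 (edgeR adjusted p = 0.00247) and Tfam, the factor that packs and transcribes mitochondrial DNA, by 0.42 (edgeR adjusted p = 0.0347). Nrf1, whose motif is shown above for Ndufaf4, averaged 33.8 CPM (SD 4.56, n = 5) and 36.5 CPM (SD 2.70, n = 4) and did not pass (edgeR adjusted p = 0.562), nor did Gabpa, Yy1 or Ppargc1b.

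**Figure D3:**
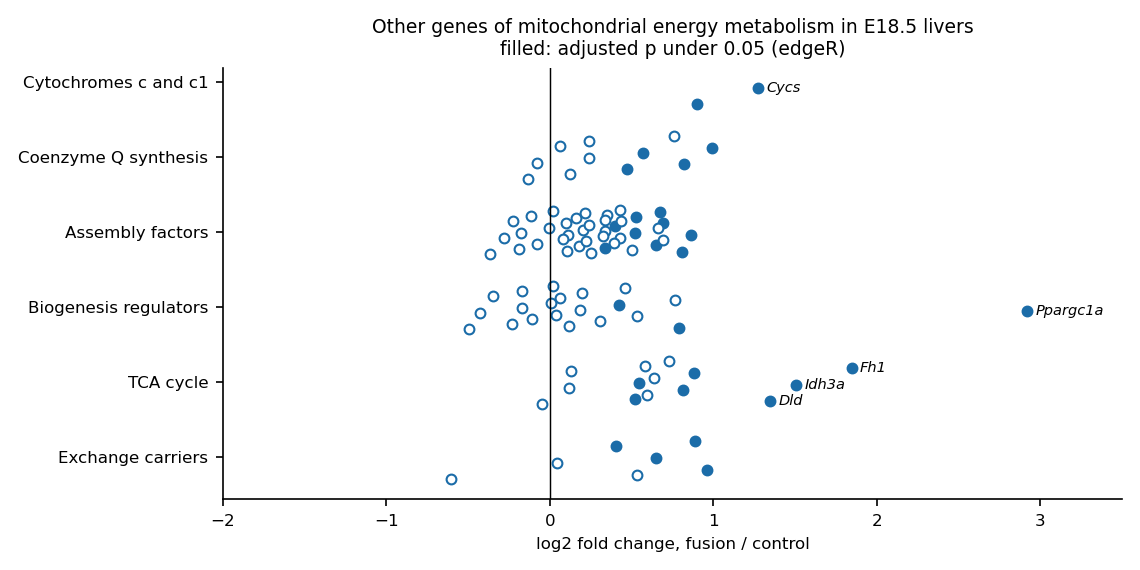
Log2 fold change between fusion and control E18.5 livers of single genes in 6 lists of mitochondrial energy metabolism, with filled points for an adjusted p under 0.05 in edgeR. Every filled point lies to the right of 0, and Ppargc1a stands farthest out at 2.92.

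The second comparison asks whether these genes differ between FL8 tumours under palbociclib and under vehicle. In limma on log2(CPM + 1), 104 of the 110 members had a mean of at least 1 CPM and were tested, and 0 passed in either direction, as did 0% of all 12829 genes. At an unadjusted p under 0.05, 2 members were higher and 0 lower, against 3.73% of all genes higher. The same count was 4 lower and 0 higher in edgeR on the recovered reads, where 5.38% of all genes passed that level in either direction. It was 0 in DESeq2, against 6.4% of all genes, and 3 higher and 1 lower in limma-voom with quality weights, against 8.46% of all genes. With adjustment 0 members passed 0.05 in edgeR, DESeq2 or limma-voom. Not tested were Cox4i2, Cox6a2, Cox6b2, Cox7a1 and the pseudogenes Atp5k-ps2 and Atp5l-ps1. Cox7a1 was at 0.190 to 0.768 CPM in vehicle and 0.192 to 2.66 CPM in palbociclib tumours.

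The nuclear members leaned upward with palbociclib without passing the test: 85 of 91 tested had a log2 fold change above 0, with a median of 0.30 against 0.14 for all genes. The lean was not particular to them. Above 0 were also 71 of 83 cytosolic and 71 of 78 mitochondrial ribosomal protein genes, with medians of 0.17 and 0.25. The same held for 36 of 38 further assembly factors and 14 of 14 cycle genes, with medians of 0.34 and 0.28. When mitochondrial reads were left out of each total, the median of all genes was 0.01 and that of the nuclear members 0.17, with 70 of 93 above 0. On recovered reads 61 of 94 nuclear members were above 0 in edgeR, 56 in DESeq2 and 79 in limma-voom with quality weights. Their medians were 0.10, 0.08 and 0.22, against -0.05, -0.06 and -0.01 for all genes. Cox7a2, the ubiquitous complex IV isoform, was at 93.6, 119, 178, 227 and 343 CPM in vehicle 1 to 5 and at 370, 256, 330, 244 and 235 CPM in palbociclib 1 to 5. The groups overlapped through vehicle 5, and the log2 fold change was 0.70 ± 0.32 (SE; limma adjusted p = 0.953). Ndufb4, a complex I accessory subunit, was at 29.5 to 152 CPM in vehicle and 122 to 202 CPM in palbociclib tumours (log2 fold change 0.78 ± 0.36, SE; limma adjusted p = 0.953).

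By complex, the median log2 fold change of the nuclear members was 0.18 for complex I, 0.34 for complex II and 0.40 for complex III. It was 0.35 for complex IV and 0.44 for ATP synthase. These medians are on CPM out of all reads, where the median of all genes was 0.14, so complex I lay near it. The 5 nuclear members with the smallest p above 0 also included Uqcrc2 (0.46), Atp5g2 (0.43) and Atp5f1 (0.46). Those below 0 were Ndufa4l2 (-0.52), Ndufaf7 (-0.28), Ndufaf8 (-0.23), Ndufs5 (-0.10) and Ndufs7 (-0.04). All of these overlapped between the groups, with limma adjusted p-values of at least 0.953.

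The vehicle tumours spread far more widely than the treated ones. Nuclear members took 1.06%, 0.745%, 1.03%, 1.17% and 1.85% of the reads outside mitochondrial genes in vehicle 1 to 5, and 1.30%, 1.41%, 1.36%, 1.23% and 1.29% in palbociclib 1 to 5. All 5 treated tumours lay between vehicle 4 and vehicle 5. The ribosomal protein share ran the same way at its ends, from 4.48% in vehicle 2 to 11.1% in vehicle 5, against 7.29% to 8.15% with palbociclib, and its part in the member levels was not tested. Erythroid markers summed to 1297 to 96676 CPM in vehicle and 1731 to 8458 CPM in palbociclib tumours, a further spread within the vehicle group whose part was not tested.

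Without vehicle 5, 34 members were higher at an unadjusted p under 0.05 and 0 lower, against 5.55% of all genes higher, and none passed the adjusted threshold in limma. These 34 were all nuclear, among them Atp5e (1.23), Ndufa4 (1.05), Ndufb4 (0.98) and Cox7a2 (0.95). Vehicle 5 held the largest share of reads on nuclear members. Leaving it out therefore lowers the vehicle levels of the same members, and the 34 are no separate test of them. Without vehicle 1 instead, 0 nuclear members were higher at that level in limma, against 3.23% of all genes, and 1 was lower. Without both vehicle 1 and vehicle 5, a choice made after the data were seen, 39 members were higher and 1 lower (Ndufaf7) at that level, against 4.25% of all genes higher, and again 0 passed in limma. Of the 39, 10 were mitochondrial.

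**Figure D4:**
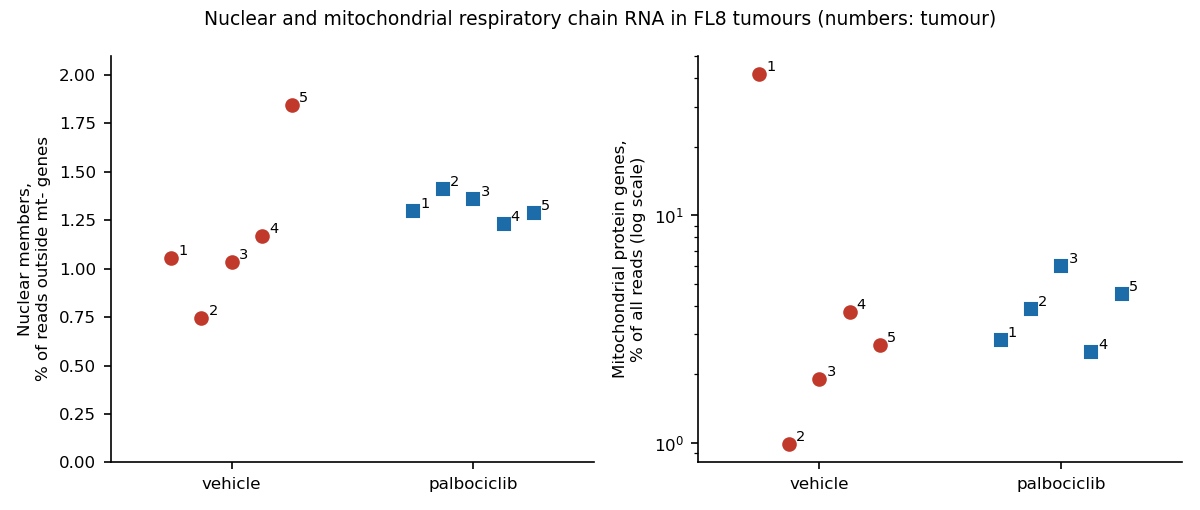
Share of reads on the nuclear members, out of reads outside mitochondrial genes (left, axis from 0), and on the 13 mitochondrial protein genes, out of all reads (right, log scale), for each numbered tumour. The vehicle tumours spread from 0.745% to 1.85% and from 0.990% to 41.7%, and the palbociclib tumours from 1.23% to 1.41% and from 2.504% to 5.99%.

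In the mitochondrial genes vehicle 1 lay far above every other tumour. The 13 protein genes took 41.7%, 0.990%, 1.91%, 3.77% and 2.70% of all reads in vehicle 1 to 5 and 2.82%, 3.86%, 5.99%, 2.504% and 4.51% in palbociclib 1 to 5. The means were 10.2% ± 17.7 (SD, n = 5) and 3.94% ± 1.40 (SD, n = 5). The difference of the means was -6.29 percentage points with vehicle 1 and 1.59 without it, so that 1 tumour set its direction. The Wilson 95% interval of a single share was narrow, 41.7% to 41.8% in vehicle 1, and covers counting error only.

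Vehicle 1 combined the highest mitochondrial share of all reads with the lowest nuclear one, 0.564% against 0.736% to 1.795% in the other tumours. Out of the reads outside mitochondrial genes its nuclear share, 1.06%, lay above those of vehicle 2 and vehicle 3, at 0.745% and 1.03%. Its reads on mitochondrial protein genes were 73.98 times those on nuclear members, against 1.34 to 4.71 times in the other tumours. The log2 ratio of mitochondrial to nuclear reads was 6.80 for complex I in vehicle 1, 1.13 to 2.60 in the other vehicle tumours and 1.93 to 3.34 with palbociclib. For complex III these were 6.21, 0.46 to 1.78 and 1.20 to 2.47, and for complex IV 7.61, 1.38 to 2.89 and 2.18 to 3.17. In vehicle 1 the hepatocyte markers were lowest, at 41871 CPM, and the 6 macrophage markers highest, at 1459 CPM against 69.7 to 177 CPM in the other tumours. The 5 endothelial markers were highest there too, at 186 against 57.7 to 143 CPM, and so were the 6 fibroblast markers, at 232 against 39.2 to 189 CPM. These CPM are out of all reads, of which 46.6% were mitochondrial in vehicle 1, and that lowers its hepatocyte sum. The part of other cell types was not tested.

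Gene by gene, mt-Co1, the catalytic subunit of complex IV, was at 180998, 4201, 7758, 14655 and 8081 CPM in vehicle 1 to 5 and at 10950, 13872, 21517, 9530 and 17581 CPM in palbociclib 1 to 5. Vehicle 1 was above every other tumour, and vehicle 2 was the lowest. Its limma log2 fold change was -0.07 ± 0.78 (SE; adjusted p = 0.992). The complex I gene mt-Nd1 was at 68616 CPM in vehicle 1 and 1939 to 10964 CPM elsewhere, and mt-Cytb, cytochrome b of complex III, at 57657 and 1529 to 9688 CPM.

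Over the 13 genes the limma log2 fold changes ran from -0.72 (mt-Co2) to 0.28 (mt-Nd5), 4 above and 9 below 0. Without vehicle 1 all 12 mitochondrial genes tested were above 0, with a median of 0.72 against 0.03 for all genes. At an unadjusted p under 0.05, 4 of them were higher: mt-Nd5 (1.26), mt-Nd4 (1.10), mt-Cytb (0.94) and mt-Co1 (0.83), as against 3.23% of all genes higher. None passed the adjusted threshold in limma. In edgeR on recovered reads with all tumours, all 13 were below 0. Lower at an unadjusted p under 0.05 were mt-Atp6, mt-Co2, mt-Co3 and mt-Nd4l, against 3.19% of all genes lower. Each of these has a whole copy annotated on chromosome 1, described below, which makes its level uncertain. In limma-voom with quality weights on the same reads 12 of the 13 were above 0, with a median of 0.38 against -2.12 in edgeR and -2.16 in DESeq2, so that the direction turned with the tool.

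Within the mitochondrial genome the levels fell into blocks. The heavy strand is read as long precursors, so neighbouring genes are usually compared per kilobase. Relative to mt-Nd1 set to 100% in each tumour, the medians over the 10 tumours were 51.2% for mt-Nd2, 131% for mt-Co1, 25.6% for mt-Nd4, 19.4% for mt-Nd5, 27.3% for mt-Nd6, which lies on the opposite strand, and 72.1% for mt-Cytb. For the 6 genes between mt-Co1 and mt-Nd4 they were far lower: 4.52% for mt-Co2, 0.0312% for mt-Atp8, 1.45% for mt-Atp6, 2.43% for mt-Co3, 1.03% for mt-Nd3 and 0.287% for mt-Nd4l. The highest value of any of these 6 in any tumour was 7.05%, and the lowest of the 6 others 9.66%.

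**Figure D5:**
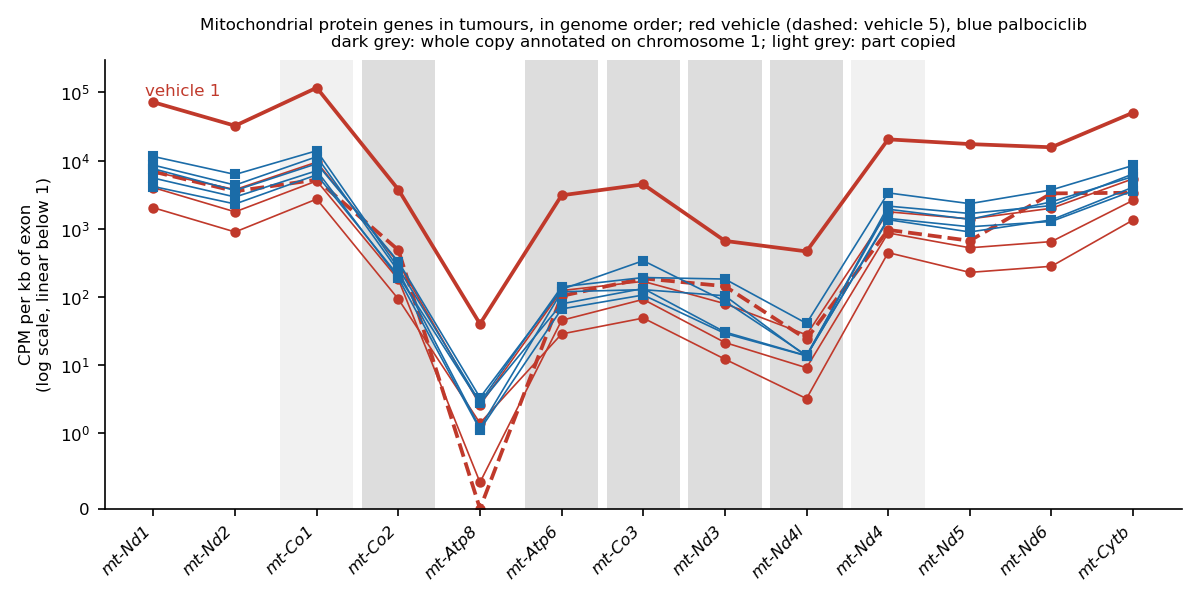
CPM per kilobase of exon (log scale, linear below 1) of the 13 mitochondrial protein genes in genome order, 1 line per tumour (red circles: vehicle, thick line vehicle 1, dashed vehicle 5; blue squares: palbociclib), with dark grey bands for a whole and light grey bands for a part copy on chromosome 1. The genes from mt-Co2 to mt-Nd4l, for which a whole copy is annotated on chromosome 1 except for mt-Atp8, lie below their neighbours in all 10 tumours, and vehicle 1 lies above the rest at each gene.

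That stretch has a nuclear copy. GENCODE M21 lists 7 unprocessed pseudogenes at chr1:24611535-24616197 (GRCm38) whose transcripts match mt-Nd4, mt-Nd4l, mt-Nd3, mt-Co3, mt-Atp6, mt-Co2 and mt-Co1 with at most 1 mismatch. Gm10925 matched mt-Atp6 over all 678 aligned bases, Gm28661 matched mt-Co2 over 681 and Gm28437 matched mt-Co3 over 783. The first aligned bases of mt-Atp6 and mt-Nd3 are shown beside those of their copies, with the base that differs in capitals where there is one.
mt-Atp6: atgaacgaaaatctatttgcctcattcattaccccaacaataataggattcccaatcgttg
Gm10925: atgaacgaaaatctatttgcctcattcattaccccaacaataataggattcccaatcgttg
mt-Nd3: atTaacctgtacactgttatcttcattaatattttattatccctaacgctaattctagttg
Gm28438: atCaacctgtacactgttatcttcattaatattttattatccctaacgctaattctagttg
Of the reads counted on mt-Atp6 and Gm10925 together, the copy took 35.1% to 51.4% over the tumours, and Gm28661 took 42.4% to 53.8% of those on it and mt-Co2. For the part copies the share was small: Gm29216 took 0.156% to 1.35% of the reads on it and mt-Co1. How reads that fit both places were counted is not given in the sources used here. The levels of mt-Co2, mt-Atp6, mt-Co3, mt-Nd3 and mt-Nd4l, and the low sum of the mitochondrial part of ATP synthase, are therefore uncertain. The same holds for mt-Nd4, copied over 876 of 1378 bases, and for mt-Co1, copied over 483 of 1545. Their small copy shares do not show how many shared reads were left out. For mt-Atp8, between mt-Co2 and mt-Atp6, no copy is annotated, and its level is uncertain too. The log2 ratio of the mitochondrial to the nuclear part of ATP synthase was 0.20 in vehicle 1 and -7.07 to -5.53 in the other tumours. The genes mt-Atp8 and mt-Atp6, mt-Nd4l and mt-Nd4, and mt-Nd5 and mt-Nd6 also overlap at their ends, and whether strand was used in counting is not given in the sources used here.

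Vehicle 5 differed in its mitochondrial reads as well. Its ribosomal RNA genes mt-Rnr1 and mt-Rnr2 took 0.0250% of the reads, against 0.166% to 0.548% in the other tumours except vehicle 1, at 4.78%. Its reads on mitochondrial protein genes were 108 times those on the pair of ribosomal RNA genes, against 4.06 to 15.05 times in the other 9 tumours.

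The regulators and partners that rose in fusion livers did not pass in the tumours. Ppargc1a was at 0.974 to 3.18 CPM in vehicle and 2.19 to 2.896 CPM in palbociclib tumours (log2 fold change 0.17, limma adjusted p = 0.965). Cycs was at 34.5 to 68.3 and 58.9 to 82.2 CPM (log2 fold change 0.50, limma adjusted p = 0.953). None of the 14 cycle genes, 7 carriers, 38 assembly factors, 21 regulators or 78 mitochondrial ribosomal protein genes tested was called in limma, and at an unadjusted p under 0.05 there were 2, 0, 1, 1 and 5, against 4.57% of all genes in either direction. Among the nuclear members counted in tumours, 7 are processed pseudogenes, such as Ndufab1-ps at 5.32 to 19.6 CPM, whose reads may be shared with their parent genes.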

How the data were processed

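For the 9 embryonic livers the authors deposited whole-number counts per gene symbol, and the submitters' processing notes name STAR 2.5.1b, DESeq2 and mm10 (GRCm38). The counting tool and its use of strand are not given in the sources used here. For the 10 tumours the authors deposited CPM, and the submitters' processing notes name cutadapt 2.10, HISAT2, featureCounts, DESeq2, R 4.1.2 and mm10. Every CPM value was a whole multiple of what 1 read is worth (100% within a tolerance of 0.001), so reads could be recovered. Whole reads gave 0 genes called in edgeR 4.0.16 and limma-voom and 7 in DESeq2 1.42.0.

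Embryo counts were tested over all genes with edgeR's quasi-likelihood test in R 4.3.3 (TMM factors, filterByExpr), and tumour CPM with limma 3.58.1 on log2(CPM + 1), with a trend, over genes whose mean reached 1 CPM. Fold changes on that scale understate those of low genes. Embryo CPM were scaled by the TMM factors, while tumour CPM are those deposited, except where mitochondrial genes were left out of the total. P-values were adjusted by Benjamini-Hochberg over all genes tested, with a threshold of 0.05. Both scripts were tested on simulated data. Totals ran from 7660736 to 45591301 counts in embryos and from 2955729 to 43141761 reads in tumours, and intervals cover counting error only. The labels name separate embryos and tumours by number alone, so p-values measure the spread between these samples.

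Tumour IDs were matched to symbols through GENCODE M21 (17469 of 17606), which also gave coordinates and exon lengths, with an entry for 87 of the 88 embryo members. Motifs were searched as exact letters on both strands of the RefSeq promoter table. Copies were aligned to mitochondrial genes with biopython 1.88. Named are the called members in embryos, except 1 that is not reported here by name, the largest and smallest fold change per complex, the tissue isoforms, all mitochondrial protein genes and, in tumours, the 5 nuclear members with the smallest p in each direction. Other members named were chosen after their values were seen. Members and lists were chosen with earlier results of these data known. Alternatives covered normalization, filters, pseudocount, test tool, covariates, the library split and leaving out each sample. The numbers of the tumours did not pair them.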

Additional observations from a re-analysis of the deposited data

Results flagged for a closer look

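In 14 of 112 groups of 4 or 5 values that were checked, 1 sample lay farther from the rest than Dixon's 95% limit allows, which chance does in about 1 in 20 groups (5.6 here). Of these, 6 were measures of mitochondrial reads in vehicle 1. Those 6 rest on the same reads and are not independent, so the 14 cannot be weighed directly against 5.6. The mitochondrial protein genes took 41.7% of its reads, while the remaining vehicle tumours were at 0.990% to 3.77%. These reads were 73.98 times those of the nuclear members, against 1.34 to 3.36 times in the rest. Its log2 ratio of mitochondrial to nuclear reads was 6.80 for complex I, 6.21 for complex III, 7.61 for complex IV and 0.20 for ATP synthase, where the other vehicle tumours were at most at 2.60, 1.78, 2.89 and -5.53.

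The other 8 were levels of single members. In control 1, Ndufaf4 was at 16.2 CPM against 19.4 to 20.5 in the other controls, and Ndufs5 at 38.4 against 32.4 to 33.6 CPM. In control 2, Ndufab1 was at 81.3 against 60.8 to 65.6 CPM and Sdhd at 365 against 297 to 312 CPM. In fusion 6, Ndufa12 was at 87.8 against 102 to 104 CPM in the other fusion livers. Among tumours, Ndufb4 was at 202 CPM in palbociclib 1 against 122 to 145 CPM, Ndufaf7 at 5.97 CPM in vehicle 1 against 14.9 to 17.4 CPM, and Ndufs5 at 26.4 CPM in vehicle 5 against 7.17 to 10.6 CPM. With mitochondrial genes left out of each total, Ndufaf7 was at 11.2 CPM in vehicle 1 against 15.5 to 17.8 CPM in the other vehicle tumours.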

How the results depend on the processing

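The count of 28 members higher in fusion livers became 55 with the library split as a covariate and 44 within the livers of smaller ribosomal protein share. Of all genes 16.1% and 10.6% were called higher there, against 5.99% in the main fit. When 1 liver was left out, the count ran from 20 (without fusion 8) to 34 (without fusion 6). In those fits 987 of 13460 and 1169 of 13374 genes were called in either direction, against 1704 of 13316 in the main fit. The count of members was 37 in DESeq2 (9.04% of all genes higher) and 38 within the livers of larger ribosomal protein share (10.2%). Without a filter it was 29, where 1768 of 13549 genes were called in either direction. It was 28 with RLE size factors (6.25% of all genes higher) and 21 with sex as a covariate (4.18%). Without ribosomal protein genes, a setting chosen after the data were seen, it was 28 (5.89%). No member was called lower in any of these settings. None of the 28 changed direction, and 17 of 17 settings kept the call of Ndufs1, Sdhb, Uqcrfs1, Uqcrb, Cox7a1, Cox7a2 and Atp5o, while Uqcrc1 lost it in 10, Atp5g3, Ndufa12 and Ndufc2 in 8, and Cox7c, Ndufab1 and Sdhd in 7. In tumours 0 members were called in any setting run. With the replicate block, the number of the labels, 0 members were called in either direction, and same-numbered tumours did not deviate together (correlations of -0.32 to 0.00). The difference in the mitochondrial share of reads ran from -8.60 to 1.59 percentage points when 1 tumour was left out, and was above 0 without vehicle 1 alone. Ndufs5 turned to 0.21 without vehicle 5 and 0.00 without palbociclib 5 (range -0.23 to 0.21), and to 0.21 and 0.24 without vehicle 1 and 5, the latter with mitochondrial genes out of the total. Ndufs7 turned to 0.05 without vehicle 4, 0.10 without vehicle 5 and 0.04 without palbociclib 1 (range -0.18 to 0.10), and the cause was not tested. The depth of vehicle 5 puts 3 reads at 1.01 CPM, which limits what it can show of low genes.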
